A study of Homo sapiens with 6 samples.

Results

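The loci of 8 classical progestin target genes were followed in T47D-MTVL cells, a human breast cancer line of the T47D family that carries an integrated mouse mammary tumour virus reporter. The genes were FKBP5, ZBTB16, SGK1, KLF9, STAT5A, STAT5B, HSD11B2 and EGFR. The list rests on their standing as known hormone targets and uses no measured value, but it was chosen with earlier results of these data known. A window of 10 kb belonged to a locus when its start lay within the range set for the gene, which gave 7 loci and 98 windows of 303641 in all. STAT5A and STAT5B lie side by side and shared 1 locus. Chromatin immunoprecipitation followed by sequencing (ChIP-seq) gave 3 libraries with an antibody against PARP1 and 3 with an antibody against CDK2. Per the labels, cells stood in hormone-stripped and then serum-free medium, and were fixed without hormone (0 min) or after 5 or 30 min of 10 nM R5020, a synthetic progestin. Each antibody and time had 1 library of 1 line, so no value below has an error between replicates, and each test compares 2 libraries and not 2 conditions. In a pool of cells, more cells with the protein bound and more protein per cell cannot be told apart.

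Progestins bind the progesterone receptor, a transcription factor that recognises hormone response elements in DNA, and the receptor in the cytoplasm also starts kinase cascades within minutes. PARP1, a nuclear enzyme, builds chains of ADP-ribose on proteins, which loosens chromatin. CDK2 is a cyclin-dependent kinase best known for its role in S phase entry, and the study concerns its activation of PARP1 in the hormone response. Among the target genes, FKBP5 encodes a co-chaperone of HSP90 that dampens steroid receptor signalling, SGK1 a serine/threonine kinase of salt and survival pathways, and HSD11B2 the enzyme that turns cortisol into inactive cortisone. ZBTB16 (PLZF) and KLF9 are zinc finger transcription factors, STAT5A and STAT5B transmit prolactin signals in mammary epithelium, and EGFR is the receptor for epidermal growth factor.

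The steroid response element consists of the half-site AGAACA and its reverse complement TGTTCT, and the stretches below show where these letters occur near the starts of the target genes. RefSeq promoters (GRCh38.p14, 250 bases before to 50 after each start) were at hand for 6 of the 8 genes, with 12 promoters in all. Either half-site, searched as AGAACA on both strands, was found in 5 of the 12, against 14.8% of 35116 promoters. The 5 promoters hold 4 distinct sites, since 2 overlapping STAT5A promoters share one. The complete element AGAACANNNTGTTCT was in none of the 12 and in 1 of the 35116. A match is a run of letters and no bound site, and the windows of this experiment are in hg19, so the stretches were not placed in them. Capitals mark the half-site, and each stretch runs 5′ to 3′ along the gene.
STAT5A, chr17:42287320-42287369, plus strand, first base of the half-site 97 bases before the start: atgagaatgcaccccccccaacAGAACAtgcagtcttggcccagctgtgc
FKBP5, chr6:35728572-35728589, minus strand, half-site at the start: taccccAGAACAaactcc
SGK1, chr6:134177845-134177862, minus strand, half-site just after the start: cataacAGAACAgggata
EGFR, chr7:55109851-55109868, plus strand, half-site just after the start of the second listed promoter: gacttcAGAACAagaggg

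The 6 libraries held 40097131 to 63448449 reads, and all 98 windows passed the minimum mean of 10 reads. No window of the loci was empty in any library, with a lowest count of 26 reads. The CDK2 library of 5 min stood apart. Independent reads give a dispersion between neighbouring windows of 1. The 3 CDK2 libraries, in order of time, had 7.43, 52.2 and 24.0, and the 3 PARP1 libraries 6.11, 11.4 and 8.62. Of the 278395 windows compared, those with that minimum mean, 3986 held 0 reads in CDK2 at 5 min, against 4 to 588 in the other libraries. Intervals below are 95% intervals from reads divided by these dispersions. They cover the scatter of reads between neighbouring windows of a library, and no error between replicates. Such a dispersion also holds any true difference between neighbouring windows.

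EGFR carried the most reads per window of the 7 loci in all 6 libraries. Levels are given as RPM, reads per 1000000 of the library total, as a mean per window. EGFR had 5.79, 6.61 and 5.98 RPM for PARP1 at 0, 5 and 30 min, and 5.68, 5.45 and 7.02 RPM for CDK2. The EGFR locus lay 1.18 to 1.43 times above the mean of its flanks, the 500 kb on each side, in every library, and the flanks themselves at 1.41 to 1.51 times the median window of the genome. No input library was used here, so bound protein and the number of gene copies cannot be told apart in such a level. The STAT5A/STAT5B locus came second in every library, with 4.36, 4.86 and 4.96 RPM for PARP1 and 4.50, 4.40 and 5.39 for CDK2. Its level was near that of its flanks, at 0.932 to 1.11 times.

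SGK1 was lowest in all libraries but CDK2 at 30 min, where KLF9 was. The SGK1 level was 2.30, 2.41 and 2.33 RPM for PARP1 and 2.35, 1.82 and 2.52 for CDK2. It lay below its flanks in all 6 libraries, at 0.639 to 0.937 times. The windows of EGFR and SGK1 did not overlap in the 3 PARP1 libraries and in CDK2 at 0 min, but they did in CDK2 at 5 and 30 min. KLF9 had 2.67, 2.62 and 3.04 RPM for PARP1 and 2.98, 2.25 and 2.01 for CDK2.

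FKBP5 and ZBTB16 stood next to each other in the order before hormone, with 4.03 and 3.99 RPM for PARP1, and the ranges of their windows overlapped. FKBP5 had 4.03, 4.12 and 4.08 for PARP1 and 3.72, 3.91 and 4.01 for CDK2, the smallest range over time of the 7 loci for both antibodies. ZBTB16 had 3.99, 4.64 and 4.40 for PARP1 and 3.71, 3.86 and 4.70 for CDK2. HSD11B2, the shortest locus with 3 windows, had 3.04, 4.62 and 3.92 for PARP1 and 2.78, 2.51 and 4.99 for CDK2. It was highest for PARP1 at 5 min and for CDK2 at 30 min, as were EGFR, ZBTB16, FKBP5 and SGK1. KLF9 and STAT5A/STAT5B were highest for PARP1 at 30 min.

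**Figure D1:**
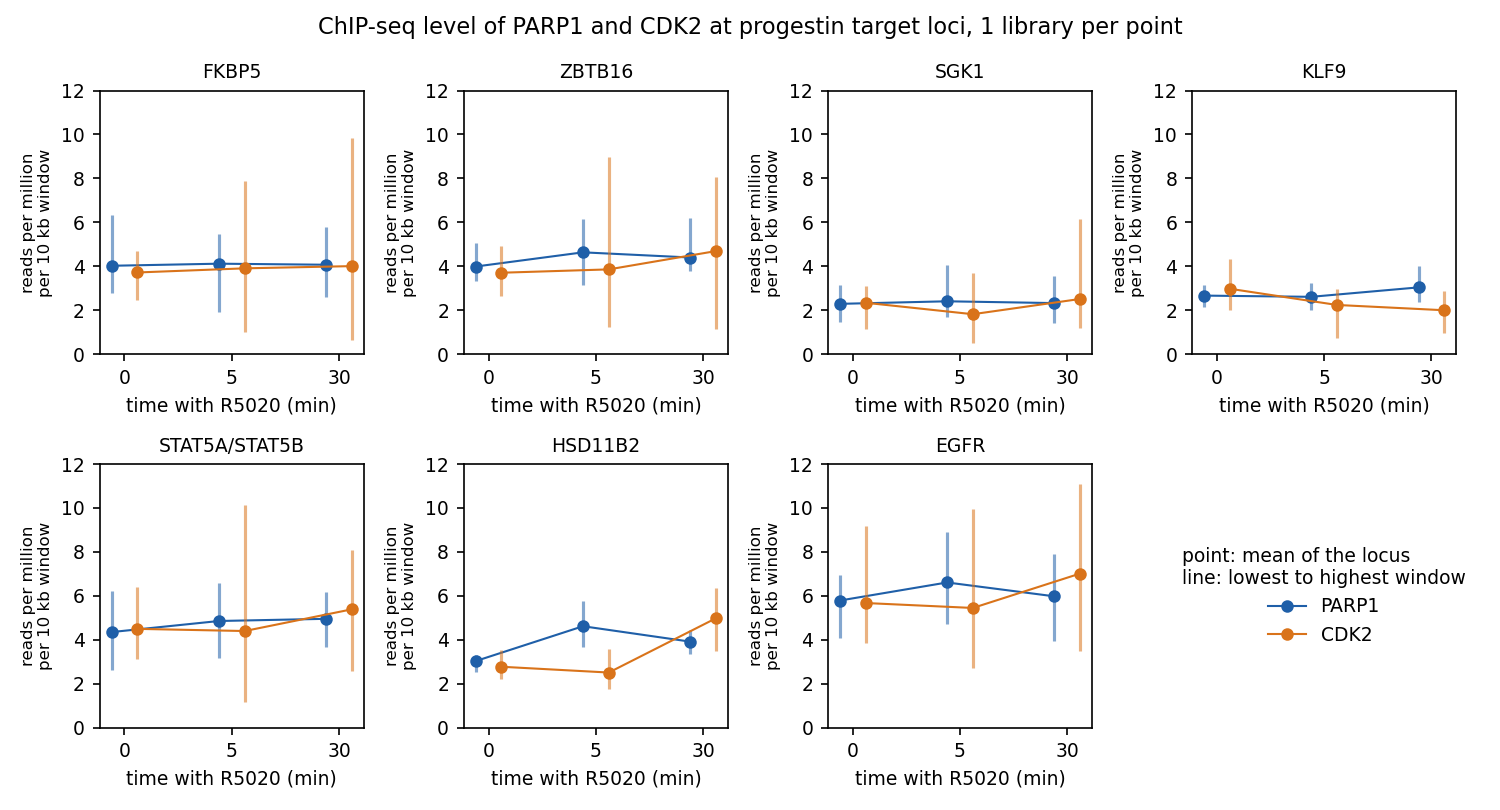
Level of PARP1 and CDK2 at each locus in RPM per 10 kb window, by minutes with R5020 (times evenly spaced). Points are the mean of a locus in 1 library and lines run from its lowest to its highest window. EGFR is highest in all 6 libraries, and the lines are longer in CDK2 at 5 and 30 min than at 0 min in most loci.

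Each PARP1 library with hormone was set against the one without. At 5 min, PARP1 reads over the 98 windows were 1.12 times those at 0 min after scaling by library totals, with 25832 against 22089 reads. The flanks of the loci, with 700 windows, had a ratio of 1.08. The median window of the loci had a ratio of 1.10, against 0.991 over all 278395 windows compared, and 63 of the 98 windows (64.3%) had more PARP1 at 5 min, against 48.6% of all windows. No window passed the call of a ratio of at least 2 or at most 0.5 with an adjusted exact binomial value under 0.05, in either direction. Genome-wide this call was met by 0.893% of windows for higher and 1.73% for lower. With a fold limit of 1.5, 12 windows were called higher and 3 lower, against 6.94% and 8.90% of all windows.

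The highest PARP1 ratio of a window at 5 min was at the edge of the STAT5A/STAT5B locus, chr17:40340001-40350000 (hg19), with 385 reads against 193 and a ratio of 1.90. The lowest was in FKBP5, chr6:35580001-35590000, with 159 against 250 reads and a ratio of 0.606. FKBP5 as a whole had 4341 PARP1 reads at 5 min against 4044 at 0 min, a ratio of 1.02 (0.900 to 1.16). SGK1 had a ratio of 1.05 (0.883 to 1.25), KLF9 of 0.979 (0.718 to 1.34) and STAT5A/STAT5B of 1.12 (0.969 to 1.29). At these 4 loci the interval included 1, although STAT5A/STAT5B reached 1.17 (1.03 to 1.33) with 1 window added at each end.

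Scaled by library totals, PARP1 at 5 min was higher at HSD11B2, ZBTB16 and EGFR, with intervals above 1. HSD11B2 had 811 reads against 508, a ratio of 1.52 (1.10 to 2.12). Without its window of highest mean the HSD11B2 ratio was 1.44 with an interval of 0.972 to 2.15. ZBTB16 had 5699 against 4677 reads, a ratio of 1.16 (1.04 to 1.30), and EGFR 8122 against 6780 reads, a ratio of 1.14 (1.04 to 1.26). Such intervals were common along the genome. They lay above 1 in 3.45% of runs of 3 consecutive windows, the length of HSD11B2, and in 14.9% of runs of 21 windows, the length of ZBTB16 and of EGFR.

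The surroundings of the loci also differed, so each locus was set against its own flanks. The flanks of HSD11B2 had a PARP1 ratio of 1.22 at 5 min and those of STAT5A/STAT5B of 1.18, and relative to them the loci had 1.25 (0.895 to 1.75) and 0.943 (0.812 to 1.10). FKBP5, with a flank ratio of 1.12, came to 0.913 (0.794 to 1.05). Flanks of EGFR had a ratio of 1.01, and relative to them EGFR had 1.13 (1.02 to 1.26). It was the only locus of 7 whose interval relative to flanks lay above 1, in a comparison where 3.65% of runs of 21 windows did so. The EGFR value was just below the 95th percentile of such runs, 1.14, and with flanks of 200 kb the interval reached 0.994. In 16 of the 21 EGFR windows the PARP1 ratio was above the median of the flanking windows. ZBTB16 followed with 1.12 (0.984 to 1.27), and 15 of its 21 windows above the flank median.

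**Figure D2:**
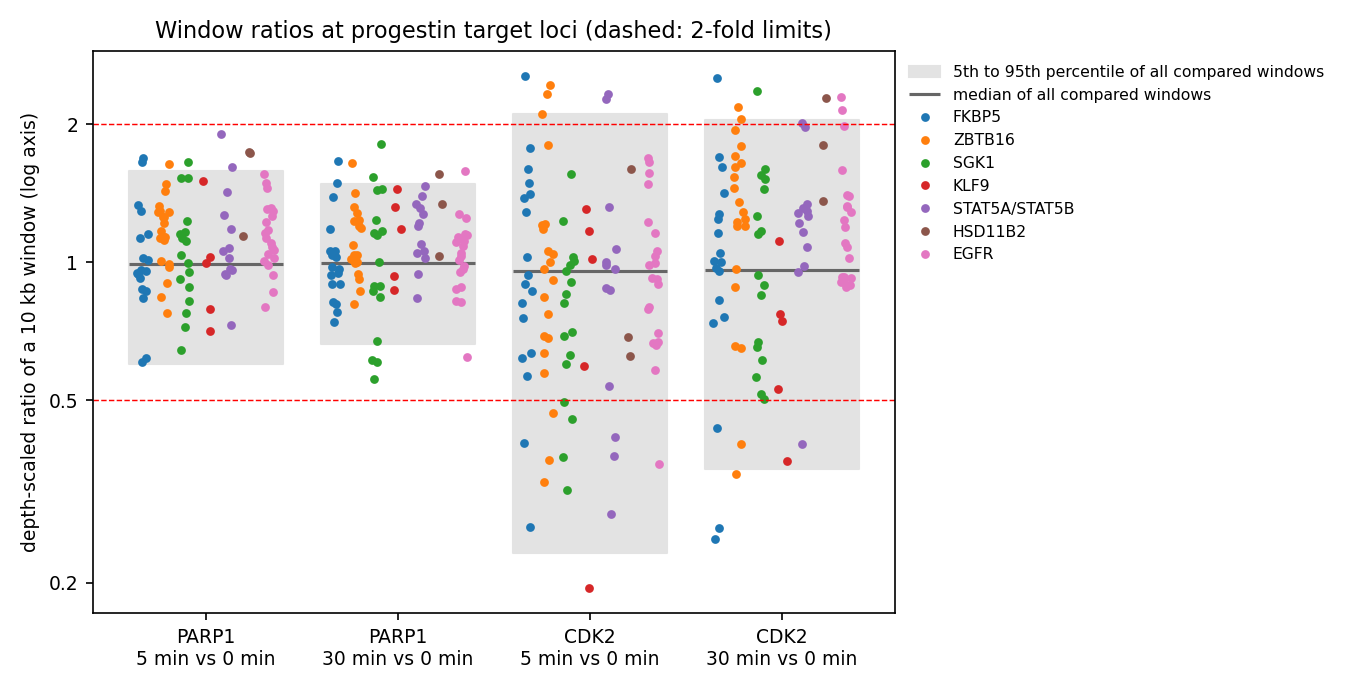
Depth-scaled ratio of each of the 98 windows (points, coloured by locus) for PARP1 and CDK2 at 5 and 30 min against 0 min, on a log axis. Grey boxes span the 5th to 95th percentile of all compared windows with their median as a line, and dashed lines mark the 2-fold limits. No PARP1 point lies beyond them, while 20 CDK2 points at 5 min and 15 at 30 min do and pass the call.

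At 30 min the PARP1 ratio to 0 min was above 1 at all 7 loci and closer to 1 over the 98 windows, with 26807 against 22089 reads and a ratio of 1.07. The flanks had 1.05. The median window of the loci had a ratio of 1.05, against 0.996 over all compared windows. Of the 98 windows 62 (63.3%) had more PARP1 at 30 min, against 49.3% of all windows. By library totals 1 of the 7 loci had an interval above 1. The comparisons of 5 and 30 min with 0 min use the same 0 min library. Again 0 windows were called in either direction, against a background of 0.406% higher and 0.587% lower, and 6 were higher and 4 lower at a fold limit of 1.5, against 4.16% and 4.90%. The STAT5A/STAT5B locus had 4090 against 3158 reads, a ratio of 1.14 (1.00 to 1.29), an interval just above 1, which 6.91% of runs of 13 windows also reached. With all libraries thinned to the smallest total its interval began at 0.983. HSD11B2 and ZBTB16 gained intervals above 1 with 1 window added at each end, at 1.33 (1.05 to 1.68) and 1.11 (1.00 to 1.22). Relative to its flanks the STAT5A/STAT5B ratio was 1.02 (0.894 to 1.17).

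The other loci had PARP1 ratios at 30 min between 1.01 at FKBP5 and 1.29 at HSD11B2, where 746 reads stood against 508 with an interval of 0.946 to 1.77. KLF9 had 966 against 745 reads, a ratio of 1.14 (0.875 to 1.49). EGFR had a ratio of 1.03 (0.946 to 1.13). Relative to flanks, 5 of 7 loci were above 1, in a range of 0.957 to 1.14, and every interval included 1.

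Directly between 30 and 5 min, EGFR had 7969 against 8122 reads in libraries of unequal depth, a ratio of 0.905 (0.819 to 0.999). An interval below 1 was found in 2.09% of runs of 21 windows, and it was lost without the window of highest mean (0.919, 0.830 to 1.02) and with 1 window added at each end (0.911, 0.829 to 1.00). Relative to flanks EGFR had 0.898 (0.803 to 1.00), and with flanks of 200 kb 0.878 (0.774 to 0.997). The other 6 loci had ratios of 0.848 to 1.16 with intervals that included 1. No window was called higher or lower, against a background of 1.30% and 0.800%.

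**Figure D3:**
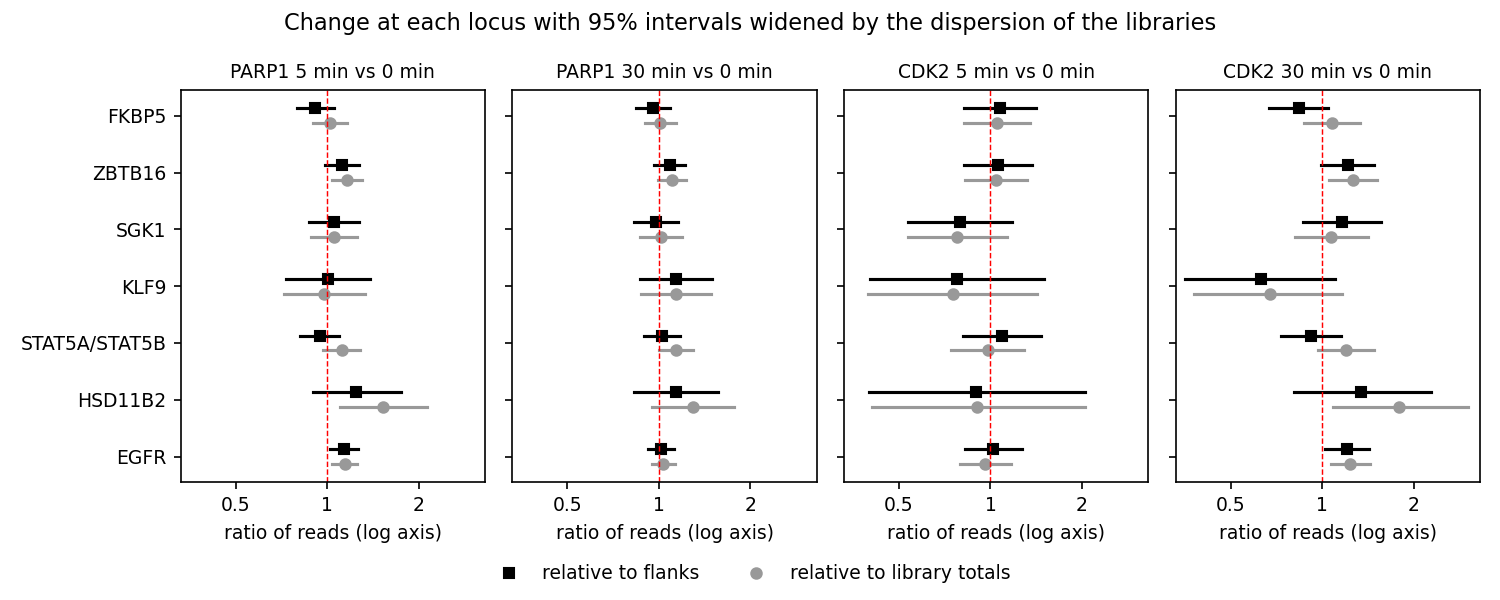
Ratio of reads at each locus for PARP1 and CDK2 at 5 and 30 min against 0 min, on a log axis, relative to flanks (black squares) and to library totals (grey circles) with widened 95% intervals. The dashed line marks a ratio of 1. Black intervals leave it only for EGFR, in PARP1 at 5 min (1.13) and in CDK2 at 30 min (1.21).

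For CDK2 the later time is given before the noisier 5 min library. At 30 min, 18292 CDK2 reads fell in the 98 windows against 17405 at 0 min, a ratio of 1.18 after scaling by totals, and their flanks had 1.14. The median window of the loci had a ratio of 1.18, against 0.962 over all compared windows. Of the 98 windows 8 were called higher (8.16%, background 5.46%) and 7 lower (7.14%, background 11.5%). Once counts were divided by the dispersion of the comparison, 14.4, the call was met by 0% of all windows, so that none at the loci says nothing about them.

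ZBTB16, EGFR and HSD11B2 had CDK2 intervals above 1 at 30 min relative to library totals. ZBTB16 had 3956 against 3516 reads, a ratio of 1.27 (1.06 to 1.52), and EGFR 5910 against 5378 reads, a ratio of 1.24 (1.07 to 1.43). Intervals above 1 occurred in 12.8% of runs of 21 windows. HSD11B2 had 600 against 376 reads, a ratio of 1.80 (1.09 to 3.01), as in 3.74% of runs of 3 windows. Without its highest window the HSD11B2 interval was 0.914 to 3.61. STAT5A/STAT5B had 1.20 (0.967 to 1.49), and 1.24 (1.00 to 1.54) with TMM factors and 1.25 (1.01 to 1.55) with size factors. FKBP5, SGK1 and KLF9 had 1.08, 1.07 and 0.672. By library totals, HSD11B2, ZBTB16 and EGFR were also the loci with PARP1 intervals above 1 at 5 min. How often runs along the genome met both was not computed. Relative to flanks, only EGFR had an interval above 1 in each of these comparisons.

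Relative to flanks, EGFR had a CDK2 ratio of 1.21 (1.02 to 1.43) at 30 min, an interval above 1 that 3.47% of runs of 21 windows shared. With 1 window added at each end it began at 0.999. ZBTB16 had 1.21 (0.991 to 1.49), and the 95th percentile of runs was 1.22. With flanks of 1000 kb the ZBTB16 ratio was 1.22 (1.01 to 1.48). HSD11B2 had 1.35 (0.808 to 2.28), beside a flank ratio of 1.33. FKBP5 and STAT5A/STAT5B lay below their flanks, at 0.838 (0.669 to 1.05) and 0.918 (0.731 to 1.15), while their flanks had ratios of 1.29 and 1.31. KLF9 had the lowest value, 402 against 673 reads and 0.632 (0.353 to 1.10), and SGK1 had 1.17 (0.869 to 1.56).

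Within FKBP5 the CDK2 windows went far apart at 30 min, with a standard deviation of 52.4% of their mean. This spread was not particular to that locus or time, with 50.2% in FKBP5 at 5 min and 56.3% in SGK1 at 30 min. The window chr6:35690001-35700000 had 394 reads against 176 at 0 min, a ratio of 2.52 (2.10 to 3.03 by counting error alone). PARP1 in that window had 217, 304 and 368 reads at 0, 5 and 30 min. The window chr6:35580001-35590000 had 31 CDK2 reads against 140, a ratio of 0.249 (0.163 to 0.370), but 456 at 5 min. Its ratio to 0 min was thus the lowest of the 98 windows at 30 min and the highest at 5 min. PARP1 had 250, 159 and 230 reads there. Another FKBP5 window, chr6:35620001-35630000, had 26 CDK2 reads against 111 (0.264), and in EGFR chr7:55120001-55130000 had 417 against 205 (2.29).

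At 5 min CDK2 stood at 21561 reads in the 98 windows against 17405 at 0 min, a ratio of 0.967 after scaling, with 0.960 in the flanks. Of the 7 loci 2 were above 1, FKBP5 with 1.05 (0.819 to 1.35) and ZBTB16 with 1.04 (0.826 to 1.31). This direction depends on the scaling. With edgeR's TMM factors or DESeq2's size factors 4 of the 7 were above 1, and with scaling on windows of low mean, which raises every log2 ratio of this comparison by 0.32, 5 were. Under that scaling FKBP5 had 1.32 (1.03 to 1.69) and ZBTB16 1.30 (1.03 to 1.65). SGK1 had 1793 against 1799 reads, a ratio of 0.778 (0.535 to 1.13), and KLF9 649 against 673 reads, a ratio of 0.753 (0.396 to 1.43). Relative to totals or to flanks, each of the 7 intervals included 1.

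Called windows of CDK2 at 5 min numbered 6 higher (6.12%, background 6.21%) and 14 lower (14.3%, background 16.2%), and division by the dispersion, 24.5, left 0.000359% of all windows and none of the 98. The share of called windows at the loci was thus near that of the genome. The lowest ratio was in KLF9, chr9:73020001-73030000, with 42 reads against 168 (0.195), although CDK2 had 115 reads there at 30 min and PARP1 162 at 5 min. FKBP5 followed at chr6:35700001-35710000, with 58 reads against 171 (0.265) and 194 at 30 min. In ZBTB16, chr11:113960001-113970000 had 421 reads against 135 (2.43) and only 78 at 30 min. This library had the highest dispersion between neighbouring windows of the 6, at 52.2, and the part of that scatter in these values was not tested.

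Between 30 and 5 min, CDK2 had 23 windows called higher (23.5%, background 18.4%) and 6 lower (6.12%, background 15.1%). After division by the dispersion none of the 98 was called, against 0.000718% of all windows. At the scale of a locus EGFR had 5910 against 6617 reads in libraries of unequal depth, a ratio of 1.29 (1.03 to 1.60), which 9.46% of runs matched. With scaling on windows of low mean it was 1.14 (0.911 to 1.42). Relative to flanks EGFR had 1.18 (0.921 to 1.52), and with flanks of 1000 kb 1.31 (1.03 to 1.65). The ratio reached 1.98 (0.846 to 4.81) at HSD11B2.

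**Figure D4:**
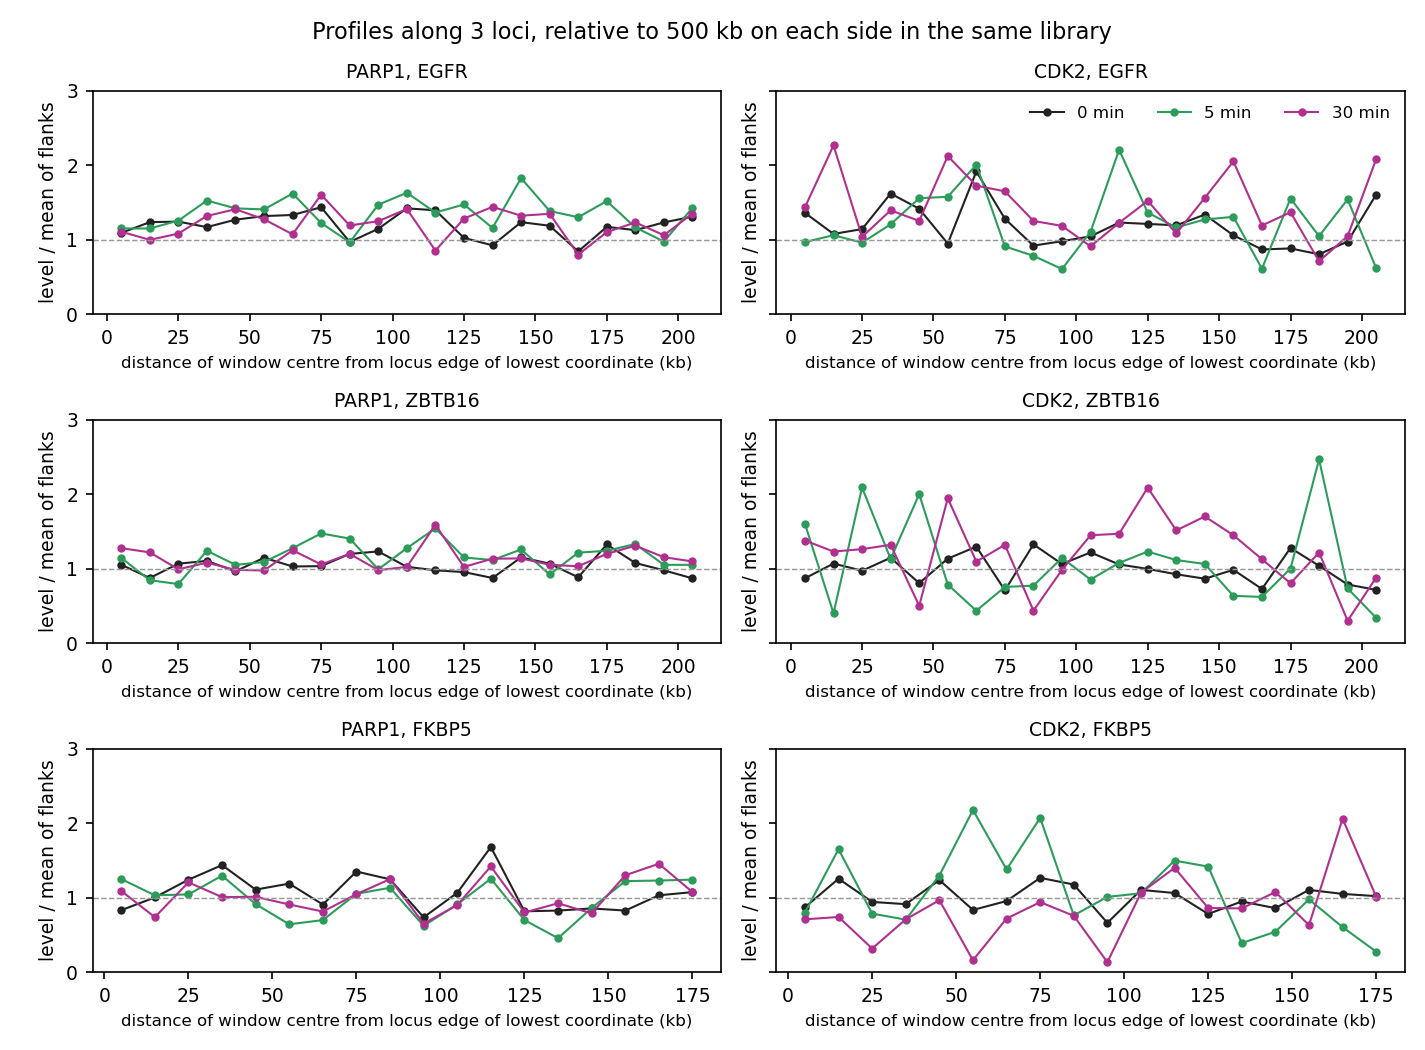
Level of each 10 kb window divided by the mean of the flanks in the same library, along EGFR, ZBTB16 and FKBP5, at 0, 5 and 30 min, with the distance from the edge of lowest coordinate in kb. PARP1 (left) is flat beside CDK2 (right), whose 5 and 30 min lines reach values such as 2.46 in ZBTB16 and 0.136 in FKBP5 in single windows.

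Averaged over the 6 libraries, the profile along the loci showed no tall peak at a 10 kb scale, although windows in single CDK2 libraries rose further above flanks. In EGFR the window highest above its flanks, averaged over the libraries, was chr7:55130001-55140000 at 1.61 times. It held 360, 463 and 335 PARP1 reads and 414, 522 and 339 CDK2 reads at 0, 5 and 30 min, and before hormone it lay above its flanks for both CDK2 (1.91 times) and PARP1 (1.33 times). In ZBTB16 the highest window, chr11:114100001-114110000 at 1.41 times, was highest in CDK2 at 5 min with 519 reads, against 174 at 0 min. The same held for STAT5A/STAT5B at chr17:40400001-40410000, with 587 CDK2 reads at 5 min (2.55 times flanks) and 202 at 0 min (1.01 times). In FKBP5 chr6:35640001-35650000 was highest at 1.39 times, with 353, 310 and 359 PARP1 reads and 178, 314 and 268 CDK2 reads. By the same average, the highest windows of SGK1, KLF9 and HSD11B2 lay 1.07 to 1.14 times above flanks. That of SGK1 was at 0.569 times in CDK2 at 5 min and 2.28 times in CDK2 at 30 min.

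The last comparison divides CDK2 by PARP1 within a time. Antibody yield enters such a ratio, which tells where reads lay and not how much protein was bound. Before hormone the loci had CDK2 to PARP1 ratios of 0.915 to 1.12, and every interval included 1. A single window was called higher for CDK2, chr9:73030001-73040000 in KLF9, with 196 CDK2 and 121 PARP1 reads (2.00), and none lower, against backgrounds of 0.442% and 0.733%. At 5 min CDK2 was called higher than PARP1 in 2 windows (2.04%, background 8.02%) and lower in 20 (20.4%, background 17.0%), and all 7 loci had ratios below 1, from 0.544 at HSD11B2 to 0.949 at FKBP5. Scaled by totals, each of the 7 intervals at 5 min included 1, with 0.241 to 1.17 at HSD11B2. With scaling on windows of low mean 4 of the 7 turned above 1. Relative to flanks, 2 of the 7 loci were above 1 at 5 min, and each interval again included 1. The pooled ratio at 5 min was 0.845 over the loci and 0.889 over their flanks. At 30 min 3 windows were higher (3.06%, background 3.84%) and 7 lower (7.14%, background 10.3%).

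EGFR alone of the 7 loci had a CDK2 to PARP1 interval above 1 at 30 min, with 5910 CDK2 and 7969 PARP1 reads in libraries of unequal depth and a ratio of 1.17 (1.02 to 1.35), as in 5.56% of runs of 21 windows. Relative to flanks it was 1.18 (1.00 to 1.39), which 1.88% of runs matched. Both intervals included 1 under each of 2 alternatives. Scaled by totals the ratio was 1.15 (0.996 to 1.34) without the highest window and 1.12 (0.977 to 1.29) with 1 window added at each end. Relative to flanks it was 1.16 (0.981 to 1.37) without the highest window and 1.12 (0.952 to 1.31) with 1 window added at each end. At 5 min the EGFR ratio scaled by totals was 0.825 (0.679 to 1.00). Its interval lay below 1 with libraries thinned (0.810, 0.665 to 0.985), without the highest window (0.805, 0.658 to 0.985) and with 1 window added at each end (0.804, 0.666 to 0.970). Relative to flanks the EGFR ratio at 5 min was 0.895 (0.719 to 1.11). Scaled by totals, 7.76% of runs of 21 windows had an interval below 1 in this comparison. Scaling on windows of low mean raises every log2 ratio of this comparison by 0.27.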

How the data were processed

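Counts of reads in consecutive 10 kb windows were deposited by the authors as raw whole numbers, with 1 column per library. Per the submitters' processing notes, Bowtie 1.0.0 and the build hg19 (GRCh37) were used. The treatment of duplicate and multiply matching reads, which can change a count, is not stated in the labels.

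Levels are RPM, reads per 1000000 of the library total. All 278395 windows with a mean of at least 10 reads were compared by a two-sided exact binomial test given the sum of both counts, adjusted by Benjamini-Hochberg. A window was called at a ratio of at least 2 or at most 0.5 with an adjusted value under 0.05. The call was checked on Poisson libraries with known changes. Such libraries hold only the noise of independent reads, without the wider scatter of these libraries (dispersions of 6.11 to 52.2). The check thus does not show how often the call errs in these data. Locus ratios sum all windows of a locus. Their 95% Clopper-Pearson intervals use counts divided by the dispersion of the libraries, the robust variance of differences between neighbouring windows over its Poisson expectation. Intervals relative to flanks include the noise of the flanks. Calls after dispersion use the variance of the comparison around its local share over 20 windows on each side. Runs for the background tile each chromosome, with all windows compared and at least 0.8 of the flanking windows.

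The loci and members were chosen with earlier results of these data known. Windows named are, per locus, the highest above flanks, and, per comparison with 0 min, up to 2 highest and 2 lowest called by the interval bound nearest 1, plus single extremes. Windows were not placed on genes and other pathway genes were not analysed here, since the annotation at hand is of GRCh38. Alternatives were TMM factors (edgeR 4.0.16), size factors (DESeq2 1.42.0) and others given below. Computation used Python 3.11.15, numpy 2.4.6, scipy 1.17.1, pandas 2.3.3 and R 4.3.3.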

Additional observations from a re-analysis of the deposited data

How the results depend on the processing

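Calls depended on the fold limit and on the dispersion. At a fold limit of 1.5 the called windows of the loci numbered 15, 10 and 7 for PARP1 (5 against 0, 30 against 0 and 30 against 5 min), 40, 38 and 52 for CDK2, and 5, 47 and 27 for CDK2 against PARP1 at 0, 5 and 30 min. In the same order, 15.8%, 9.06% and 12.9%, 45.2%, 39.7% and 55.6%, and 9.15%, 48.2% and 35.8% of all compared windows were called at that limit, against shares of the 98 windows between 5.10% and 53.1%. After division by the dispersion, 0 windows of the loci were called in any of the 6 comparisons with CDK2, where 0 to 12 of all 278395 windows were, so this loss is no result about the loci. Scaling on windows of low mean moved the median log2 ratio of the 98 windows to 0.20, 0.12, 0.20, 0.38 and 0.14 for PARP1 at 5 and 30 min against 0 min and CDK2 at 5 against 0, 30 against 0 and 30 against 5 min, and to -0.074 and 0.19 for CDK2 against PARP1 at 5 and 30 min. For CDK2 at 5 against 0 min this turned the sign, with -0.13 by library totals. Where they were run, other count minimums, TMM, size factors, thinning and leaving out the 1% of highest windows changed neither these counts by over 1.5 times nor the sign of these medians. Among locus ratios over all 9 comparisons, 353 of the depth-scaled alternatives kept the call of their interval, 17 gained an interval apart from 1 and 8 lost it. Relative to flanks 369 were unchanged, 5 gained an interval apart from 1 and 4 lost it. Of the 369, 63 were medians of window ratios, which have no interval and could not gain or lose one. One alternative, the interval without the noise of the flanks, was chosen after seeing the data. No paired analysis was possible because each antibody and time has 1 library. Windows of the loci held 26 to 587 reads. After division by the dispersion the call passed almost no window anywhere, so single windows cannot be judged beyond counting error.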

Other observations

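Over the 6 libraries, EGFR and ZBTB16 had the most alike course of the 21 pairs of loci. Ranked by level relative to flanks, the libraries came in the same order at both loci (Spearman 1.00, Pearson 0.897, n = 6 libraries of unequal depth, given as a description). HSD11B2 and SGK1 came next, with a Spearman value of 0.886. Values as large occurred in the other direction, with -0.943 for STAT5A/STAT5B against HSD11B2 and the same against SGK1. Along the 98 windows, which lie beside each other and are not independent, levels relative to flanks had a Spearman correlation of 0.492 for CDK2 against PARP1 before hormone. It was 0.469 for PARP1 at 5 against 0 min, and 0.134 for CDK2 at 30 against 5 min.

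Across the 13 windows of STAT5A/STAT5B, chosen after the values were seen, the CDK2 levels of 30 and 5 min had a Spearman correlation of 0.742, while those of 30 and 0 min had -0.115 and those of 5 and 0 min -0.0824. In the other loci of at least 6 windows the correlation between CDK2 at 30 and 5 min lay between -0.346 at SGK1 and 0.211 at ZBTB16. No test was run on these values.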
